A study of Bos taurus with 24 samples.

Results

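The genes described here encode the proteins of the mitochondrial ribosome, and they were taken as every gene whose platform symbol was MRPL or MRPS followed by a number and, for some, a letter. On the bovine array 79 features carried 77 such symbols. Each gene was represented by its brightest feature, and it entered when the mean of that feature over the 24 arrays reached the 25th percentile of all features, which was 6.76 on the log2 scale of signal. Of the 77 genes 76 passed and MRPL15 did not, so 76 of the 14198 genes tested were members, 47 with large subunit symbols (MRPL) and 29 with small subunit symbols (MRPS). The mean signal was 4.58 for MRPL15, and just inside the limit it was 7.11 for MRPS17, 7.21 for MRPL28 and 7.48 for MRPS24. MRPL12 was not a member, because its feature is paired with a second gene.

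The mitochondrial ribosome sits in the mitochondrial matrix and makes the small set of proteins encoded by mitochondrial DNA, which are core subunits of the respiratory chain and of ATP synthase. Its RNAs come from mitochondrial DNA, but all of its proteins are encoded in the nucleus, made in the cytosol and imported. The small subunit binds the messenger RNA and holds the decoding centre, and the large subunit forms the peptide bond and threads the new chain through a tunnel toward the inner membrane. Part of the proteins descend from bacterial ribosomal proteins and part have no bacterial counterpart. In skeletal muscle, which is rich in mitochondria, these genes are usually discussed together with oxidative capacity.

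Muscle of the gluteus medius, a muscle of the hip, was biopsied 2 times in each of 12 cows. These were the 6 cows with the highest gain and the 6 with the lowest gain during free feeding out of 121, and no breed or age is stated. All were first held for 112 days at an energy intake of 120 kcal ME (metabolizable energy) per unit of metabolic weight in kg, with a biopsy on day 105, and then fed freely for 112 days, with a biopsy on day 49. The titles carry a biopsy number, 1 or 2, but no period. Biopsy 1 is read here as the restricted and biopsy 2 as the free feeding one, from the order of the protocol. The 4 groups were therefore high gain and low gain cows at biopsy 1 and at biopsy 2, each with 6 arrays from 6 separate cows, and every cow passed through both feeding periods in the same order. The cows were chosen for gain, so the classes are extremes of a herd and not assigned treatments.

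The 2 sets of arrays appear to have been normalized apart: the highest log2 signal was 19.8 on every biopsy 1 array and 19.9 on every biopsy 2 array. Feeding period and processing set thus cannot be told apart here, while comparisons of the gain classes at 1 biopsy lie within 1 set. Changes between biopsies were computed after quantile normalization of the 24 arrays together, as biopsy 2 minus biopsy 1 within each cow. Gain classes were compared at each biopsy on the values as deposited. Over each cow's mean of both biopsies they were compared on the quantile normalized values. The change was fitted with limma with the cow as a block, and a gene was called changed at a Benjamini-Hochberg adjusted p under 0.05 over all 14198 genes. Errors of changes and differences are limma's moderated standard errors (SE). Array signal depends on the probes, so no gene's level is set against another gene's level.

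One array stood apart and bears on the results below that include biopsy 1. On the biopsy 1 array of low gain cow 4 the mean of 14 skeletal muscle markers was 14.9, against 18.9 to 19.5 on the other 23 arrays, and the signal of ACTA1, skeletal muscle actin, was 14.5. On that array the adipocyte marker ADIPOQ had a signal of 18.0 and the fibroblast marker DCN of 17.7. The median of the 76 members on that array was 8.74 as deposited, against 9.54 to 10.49 on the others, and 62 of the 76 members had their lowest biopsy 1 value there. The biopsy 2 array of high gain cow 4 was also rich in fat transcript, with an adipocyte marker mean of 15.6 and ADIPOQ at 18.2, and 39 of the 76 members had their lowest biopsy 2 value there. Next among biopsy 2 arrays were low gain cows 2 and 6, with adipocyte means of 13.6 and 13.4 and ADIPOQ at 14.8 and 15.9. The counts and the changes of the called members are given for the 12 cows and again for 10 cows. The 2 cows left out there are cow 4 of each class, and low gain cows 2 and 6 stay in. In a piece of whole tissue, fewer muscle cells and less RNA per muscle cell cannot be told apart.

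**Figure D1:**
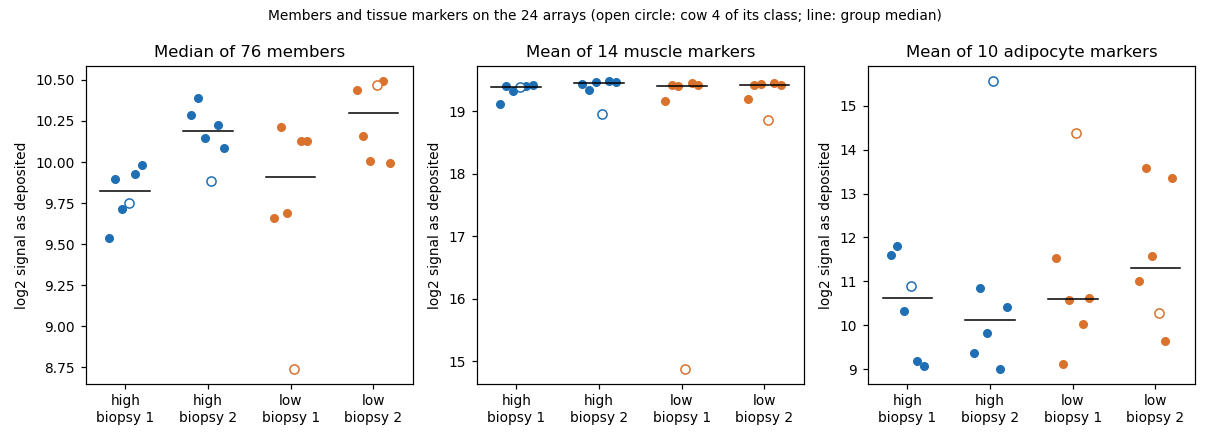
Log2 signal as deposited on the 24 arrays, by gain class and biopsy (6 points each, with a line at the group median): the median of the 76 members, the mean of 14 skeletal muscle markers and the mean of 10 adipocyte markers. Open circles are cow 4 of each class; the biopsy 1 array of low gain cow 4 is at 8.74 for the members and 14.9 for the muscle markers, below all other arrays.

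Between biopsy 1 and biopsy 2 the members moved in both directions, with more of them up than down. Over the 12 cows 21 of the 76 members were called changed (27.6%), 18 higher at biopsy 2 and 3 lower, against 38.1% of all genes tested (20.8% upward and 17.4% downward). The members' share of calls was therefore below the background as a whole, near it upward at 23.7% and well below it downward at 3.95%. The median change of the 76 members was 0.14, and 51 of them (67.1%) had a change above 0, beside a median of 0.02 and 52.4% over all genes. Without the 2 cows 34 members were called, 19 higher and 15 lower, against 42.5% of all genes (23% upward and 19.5% downward), the median was 0.09 and 43 members were above 0. The members' share of calls there, 44.7%, was near the background. All 21 calls of the 12 cows were among these 34 with the same sign, and of the 13 added calls 12 were decreases. Without low gain cow 4 alone 35 members were called, 19 higher and 16 lower, and the share of all genes is not given for that set. The increases were thus nearly the same with and without these cows, whereas the count of decreases rested on low gain cow 4.

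**Figure D2:**
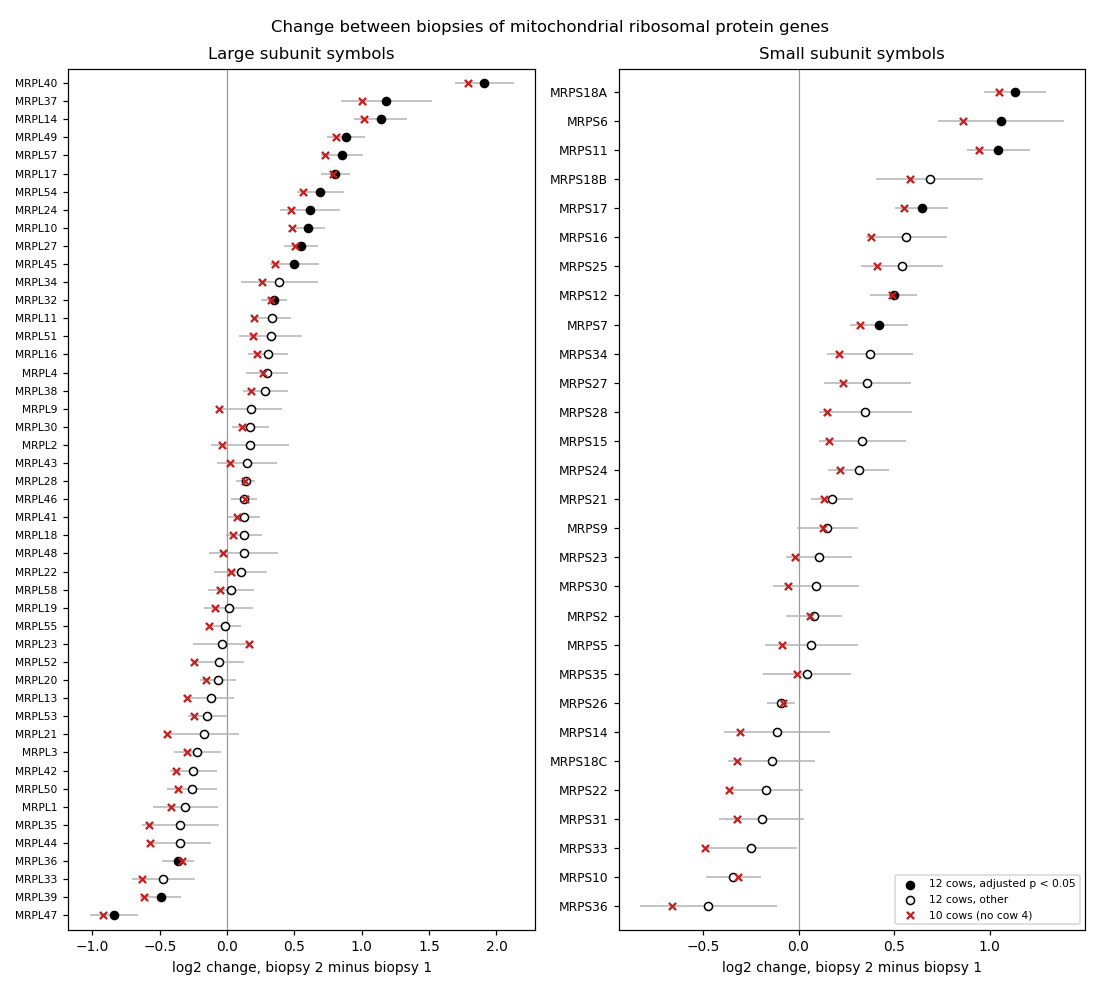
Log2 change from biopsy 1 to biopsy 2 of the 76 members, sorted within the 47 large and 29 small subunit symbols; circles with SE bars are the 12 cows, filled where the adjusted p was under 0.05, and crosses are the 10 cows without cow 4 of either class. MRPL40 is at the top with 1.91 and MRPL47 at the bottom with -0.84, and most crosses lie to the left of their circles.

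By subunit symbol, 12 large subunit members rose and 3 fell of 47, with a median change of 0.13, and 6 small subunit members rose and none fell of 29, with a median of 0.17. In the 10 cows these counts were 12 higher and 11 lower for the large and 7 higher and 4 lower for the small subunit, with medians of 0.05 and 0.13. Among proteins of bacterial descent 6 of 27 large subunit members rose and 2 fell (29.6% called), and 5 of 16 small subunit members rose (31.2%), against 38.1% of all genes. In the 10 cows these were 6 higher and 7 lower for the large (48.1%) and 5 higher and 1 lower for the small subunit (37.5%), against 42.5%. Among proteins without a bacterial counterpart 6 of 20 large subunit members rose and 1 fell (35%) over the 12 cows, and none of the 10 small subunit members was called. In the 10 cows 6 were higher and 4 lower for the large (50%) and 1 was higher and 2 were lower for the small subunit (30%). The 1 higher was MRPS18B, which was counted in this group although the MRPS18 paralogs descend from 1 bacterial gene. The difference between these groups was not tested.

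MRPL40, a large subunit protein with no bacterial counterpart, had the largest change of the 76. Its normalized log2 signal in high gain cows was 8.93 to 9.38 at biopsy 1 (median 9.05) and 10.18 to 11.37 at biopsy 2 (median 11.03). In low gain cows it was 7.27 to 10.37 at biopsy 1 (median 9.02) and 10.39 to 11.48 at biopsy 2 (median 11.14). The signal was higher at biopsy 2 in all 12 cows. Across all cows the highest biopsy 1 value, from a low gain cow, lay above the lowest biopsy 2 value. The change was 1.91 ± 0.22 (SE), or 3.76-fold (n = 12 cows, limma adjusted p = 3.75e-05), and 1.79 without the 2 cows.

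MRPL17, the counterpart of a bacterial protein near the exit of the peptide tunnel, had a smaller but more even change. Its signal was 8.98 to 9.78 on the 12 biopsy 1 arrays (median 9.57) and 9.91 to 10.96 on the 12 biopsy 2 arrays (median 10.30). The arrays of the 2 biopsies did not overlap, which held for no other member and for 2.97% of all genes. The change was 0.80 ± 0.11, or 1.75-fold (adjusted p = 9.95e-05), and 0.78 without the 2 cows. Every cow's own change was at least 0.42, with 1.19 in low gain cow 4 and 0.70 in high gain cow 4.

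There were 9 members higher at biopsy 2 in all 12 cows (11.8%), against 6.83% of all genes, and none lower in all 12, against 5.56%. In either direction the background was 12.4%. Besides MRPL40 and MRPL17 the 9 were MRPL14, MRPS18A, MRPS11, MRPL49, MRPL57, MRPL54 and MRPL10.

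MRPL14 is a protein of bacterial descent on the face of the large subunit that meets the small one, where the assembly factor MALSU1 binds. Its signal was 9.28 to 11.69 at biopsy 1 (median 10.68) and 11.24 to 12.48 at biopsy 2 (median 11.88). The ranges overlapped because 2 biopsy 1 arrays were high, those of high gain cow 2 at 11.52 and low gain cow 2 at 11.69. The change was 1.14 ± 0.20, or 2.20-fold (adjusted p = 0.000713), and 1.01 without the 2 cows.

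MRPS18A, whose protein is found in the large subunit of the mammalian particle despite its symbol, went from 9.39 to 10.52 (median 9.79) at biopsy 1 to 10.16 to 11.73 (median 11.09) at biopsy 2. Its change was 1.13 ± 0.16, or 2.20-fold (adjusted p = 0.000168), and 1.05 without the 2 cows. The 3 MRPS18 paralogs, which descend from 1 bacterial gene, gave different values. MRPS18B, a small subunit protein, changed by 0.69 ± 0.28 (adjusted p = 0.0697) and by 0.58 without the 2 cows, where it passed (adjusted p = 0.00945). MRPS18C, the small subunit paralog closest to the bacterial protein, changed by -0.14 ± 0.23 (adjusted p = 0.657) and by -0.32 without the 2 cows (adjusted p = 0.0609). Differences between the paralogs were not tested.

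MRPS11, a protein of bacterial descent on the platform of the small subunit, was 8.35 to 9.89 at biopsy 1 (median 9.20) and 9.69 to 10.83 at biopsy 2 (median 10.30). Its change was 1.04 ± 0.16, or 2.06-fold (adjusted p = 0.000348), and 0.94 without the 2 cows. Only the highest biopsy 1 array and the lowest biopsy 2 arrays met. MRPL46, the gene next to MRPS11 in the order of the RefSeq table, changed by 0.13 ± 0.10 and was not called (adjusted p = 0.338).

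The other members higher in all 12 cows lay between these and the smallest calls. MRPL49, a large subunit protein without a bacterial counterpart, changed by 0.88 ± 0.14 (adjusted p = 0.000382), and by 0.81 without the 2 cows. MRPL57, a small protein of the same kind, changed by 0.85 ± 0.15 (adjusted p = 0.00096), and by 0.72 without them. MRPL54, also of this kind, changed by 0.69 ± 0.17 (adjusted p = 0.00721), and by 0.57 without them. With MRPL40, 4 of the 9 were thus listed as without a bacterial counterpart, as were 30 of all 76 members. MRPL10, which anchors the stalk that recruits translation factors, changed by 0.60 ± 0.12 (adjusted p = 0.00225), and by 0.48 without them.

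**Figure D3:**
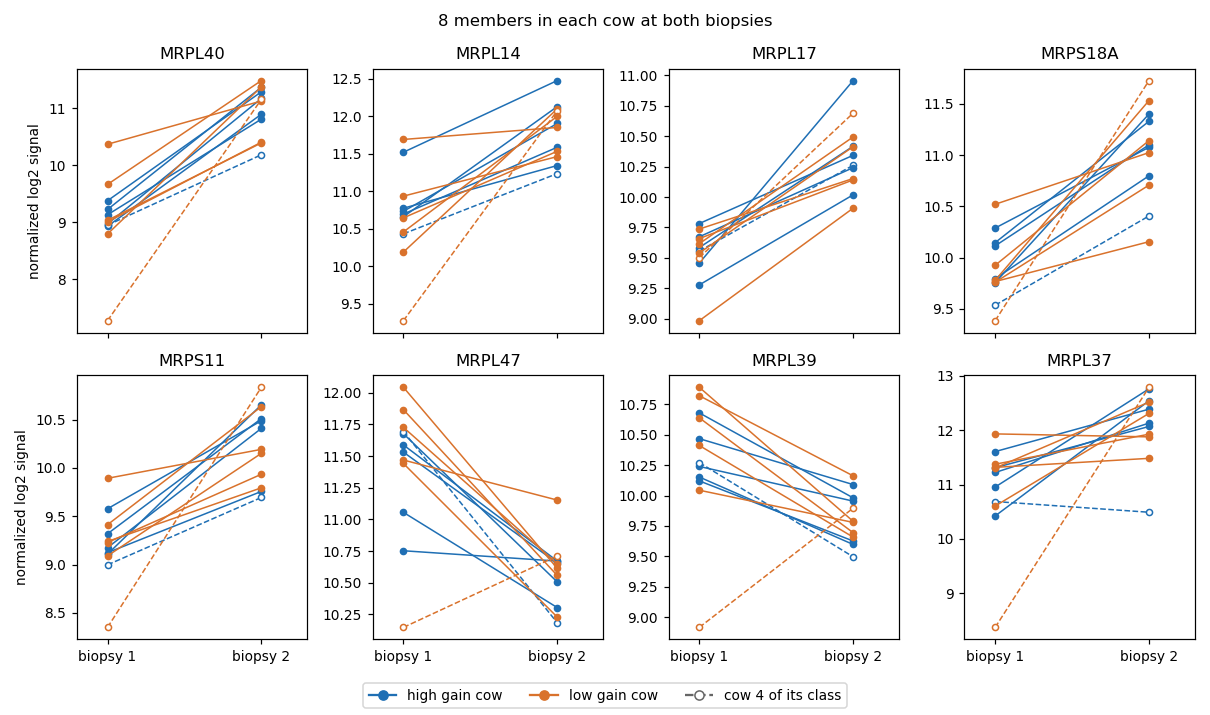
Normalized log2 signal of 8 members at biopsy 1 and biopsy 2, with 1 line per cow (blue high gain, orange low gain, dashed with open circles for cow 4 of each class). The lines of MRPL40, MRPL14, MRPL17, MRPS18A and MRPS11 rise in all 12 cows, those of MRPL47 and MRPL39 fall in 11 of 12, and low gain cow 4 starts lowest in 7 of the 8 panels.

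Of the other increases, MRPL37 and MRPS6 were large but uneven. MRPL37, a large subunit protein without a bacterial counterpart, was 8.37 to 11.93 at biopsy 1 (median 11.26) and 10.49 to 12.79 at biopsy 2 (median 12.22). The lowest biopsy 1 value was that of low gain cow 4 and the lowest biopsy 2 value that of high gain cow 4. The change was 1.18 ± 0.34 (adjusted p = 0.0138), upward in 10 of 12 cows, and 1.00 without the 2 cows. MRPS6, a small subunit protein of bacterial descent, was 7.94 to 9.80 at biopsy 1 (median 8.83) and 8.38 to 12.15 at biopsy 2 (median 9.35). Its change was 1.06 ± 0.33 (adjusted p = 0.0218) and 0.86 without the 2 cows (adjusted p = 0.0498), and single cows among the 10 ran from -1.20 to 2.54.

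The other 4 large subunit members that rose had smaller changes. MRPL27, whose bacterial counterpart reaches toward the peptidyl transferase centre, changed by 0.55 ± 0.13 (adjusted p = 0.00443), and by 0.51 without the 2 cows. MRPL24, the counterpart of a bacterial protein at the tunnel exit, changed by 0.62 ± 0.22 (adjusted p = 0.041). MRPL45, which lies at the tunnel exit and attaches the ribosome to the inner membrane, changed by 0.50 ± 0.18 (adjusted p = 0.045). Both were close to the threshold, and without the 2 cows they changed by 0.48 and 0.36. MRPL32, a protein that is cut by a mitochondrial protease before assembly, changed by 0.35 ± 0.10 (adjusted p = 0.0123), and by 0.33 without them.

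In the small subunit MRPS12, a protein of the decoding centre, changed by 0.50 ± 0.12 (adjusted p = 0.00613), and by 0.49 without the 2 cows. MRPS7, a protein of the head that binds the ribosomal RNA early in assembly in bacteria, changed by 0.42 ± 0.15 (adjusted p = 0.0424), and by 0.32 without them. MRPS17, another protein of bacterial descent, changed by 0.65 ± 0.14 (adjusted p = 0.00283) and by 0.55 without them, but its 2 features disagreed. The kept feature had a mean of 7.11 and no Entrez number in the annotation, and the other, below the limit with a mean of 5.68, changed by -0.0033. For MRPL23, the other member with 2 features, the changes were -0.04 for the kept and 0.04 for the other feature.

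The 3 members that fell over the 12 cows were all large subunit genes. MRPL47, the counterpart of a bacterial protein beside the tunnel exit, was 10.15 to 12.04 at biopsy 1 (median 11.56) and 10.18 to 11.15 at biopsy 2 (median 10.63). It was lower at biopsy 2 in 11 of 12 cows, and low gain cow 4 was the exception with a change of 0.56. The change was -0.84 ± 0.18, or 0.558-fold (adjusted p = 0.0027), and -0.92 without the 2 cows. MRPL39, which resembles a threonyl-tRNA synthetase, was 8.92 to 10.89 at biopsy 1 (median 10.34) and 9.50 to 10.16 at biopsy 2 (median 9.78). Its change was -0.49 ± 0.15 (adjusted p = 0.0228), again upward only in low gain cow 4, and -0.62 without the 2 cows. MRPL36, the counterpart of a small zinc-binding bacterial protein, changed by -0.36 ± 0.12 (adjusted p = 0.0261), and by -0.33 without the 2 cows. Its highest biopsy 1 value, 11.77, was on the array of low gain cow 4, where most members were lowest.

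A second set of decreases passed in the 10 cows, where the adjusted p was under 0.05 for 12 members that had missed it in the 12 cows. The largest was MRPS36, a small protein that belongs to the 2-oxoglutarate dehydrogenase complex and not to the ribosome, at -0.66 (adjusted p = 0.0295) against -0.47 ± 0.36 over 12 cows. MRPL33, near the exit site for transfer RNA in bacteria, changed by -0.63 (adjusted p = 0.0116) and was lower in all 10 cows. MRPL44, which carries a fold of the RNase III family, changed by -0.57 (adjusted p = 0.00289), against -0.35 ± 0.23 over 12 cows. MRPL42, a protein without a bacterial counterpart, changed by -0.38 (adjusted p = 0.0124) and was lower in all 10 cows.

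The rest of these 12 spanned both subunits. MRPL35, of bacterial descent, changed by -0.58 and MRPS33, without a bacterial counterpart, by -0.49. MRPL21, of bacterial descent, changed by -0.44 and MRPL1, the protein of the stalk at the exit site in bacteria, by -0.41. MRPL50 and MRPS22, neither with a bacterial counterpart, both changed by -0.36, and variants of MRPS22 are known from human mitochondrial disease. MRPS10, a protein of the head, changed by -0.31, and MRPL13, of bacterial descent, by -0.29. In low gain cow 4, 11 of the 12 had changed upward, by 1.61 to 2.92, and MRPS10 by -1.22. The part of that sample's tissue makeup in these values was not tested.

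Several members with well-known roles did not pass in either set of cows. MRPL11, the protein of the stalk base where translation factors bind, changed by 0.33 ± 0.15 over 12 cows (adjusted p = 0.0875). MRPL3, close to the peptidyl transferase centre, changed by -0.22 ± 0.17 (adjusted p = 0.334). MRPL58, also a peptidyl-tRNA hydrolase, changed by 0.03 ± 0.17 (adjusted p = 0.908). Their changes lay on both sides of 0.

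In the small subunit MRPS16, a protein of bacterial descent, changed by 0.56 ± 0.21 (adjusted p = 0.0512). MRPS34, a protein without a bacterial counterpart, changed by 0.37 ± 0.23 (adjusted p = 0.212), and MRPS2, of bacterial descent, by 0.08 ± 0.15 (adjusted p = 0.69). MRPS30, whose protein lies in the large subunit, changed by 0.09 ± 0.22 (adjusted p = 0.769).

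The features of the members differed widely in brightness, which depends on their probes and gives no order of transcript amounts. The features with the highest mean signal over the 24 arrays were those of MRPL3 (13.06), MRPL21 (12.91), MRPL34 (11.94) and MRPL22 (11.68) among large and MRPS36 (15.75), MRPS10 (13.25), MRPS35 (12.70) and MRPS15 (12.16) among small subunit symbols. Those with the lowest were MRPL28 (7.21), MRPL46 (8.17), MRPL55 (8.47) and MRPL32 (8.48), and MRPS17 (7.11), MRPS24 (7.48), MRPS26 (7.95) and MRPS21 (8.70). None of the 76 members reached the arrays' ceiling.

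The change of the members as a whole differed from cow to cow. In high gain cows 1 to 6 the median change of the 76 members was 0.45, 0.41, 0.20, -0.20, 0.18 and -0.10. In low gain cows 1 to 6 it was 0.46, -0.32, -0.03, 1.78, -0.25 and -0.12. Members above 0 numbered 72 of 76 in low gain cow 4 and between 20 and 58 in the other cows, so 6 of 12 cows had a median above 0 and 6 below. For single members the standard deviation of the change over the 12 cows was 0.21 to 1.34, with a median of 0.66, and low gain cow 4 had the highest change of all cows for 68 of the 76.

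The median change of the adipocyte markers had the opposite sign to that of the members in 10 of 12 cows. It was -1.58, -0.75, -0.21, 4.97, 0.13 and 0.69 in high gain cows 1 to 6, and -0.28, 3.85, 0.40, -4.56, -0.13 and 2.29 in low gain cows 1 to 6. The 5 cows with the largest adipocyte increases (high gain cows 4 and 6, low gain cows 2, 3 and 6) all had a member median below 0, and the cow with the largest adipocyte decrease had the largest member increase. This opposition was not particular to adipocyte markers. Fibroblast, endothelial, and macrophage and leukocyte medians also had the opposite sign in most cows, at -3.14, -3.06 and -0.71 in low gain cow 4. The exceptions were cow 5 of both classes for fibroblast and high gain cow 6 for endothelial markers. For macrophage and leukocyte markers the exceptions were those same cows. Over the 12 cows 2 of 10 adipocyte markers rose and none fell, 6 of 8 markers of macrophages and leukocytes were called, 3 in each direction, 1 of 6 endothelial markers fell and none of 8 fibroblast or 3 red blood cell markers was called, against 38.1% of all genes. None of 14 skeletal muscle markers was called, but 7 to 11 of the 14 were at the arrays' ceiling on every array other than the biopsy 1 array of low gain cow 4, where 1 was, and a marker at the ceiling cannot show an increase. The mean adipocyte signal was 9.06 to 14.4 at biopsy 1 and 8.99 to 15.6 at biopsy 2. The part of fat or of other cell types in the members' changes was not tested.

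**Figure D4:**
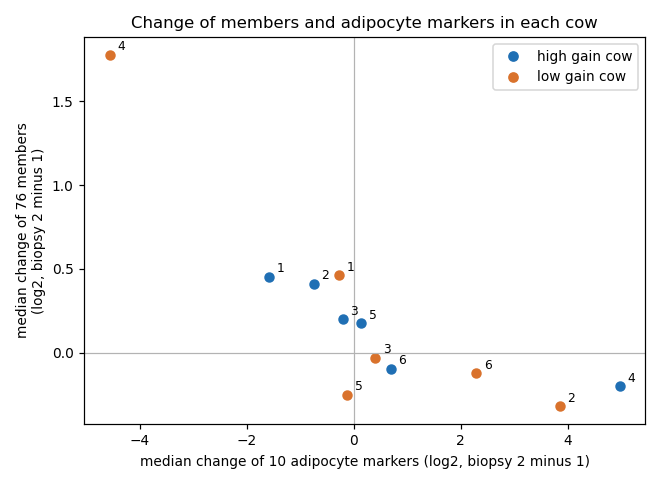
Median log2 change of the 76 members (vertical) beside the median log2 change of 10 adipocyte markers (horizontal), biopsy 2 minus biopsy 1, for the 6 high gain (blue) and 6 low gain (orange) cows, numbered within class. Low gain cow 4 lies at 1.78 and -4.56, and the cows with large adipocyte increases lie below 0 for the members.

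Most of the members called in 1 gain class were also called in the other. In the 6 high gain cows 12 of 76 members were called (15.8%), 11 higher and 1 lower, against 20.3% of all genes (11.5% upward and 8.73% downward), and the members' median change was 0.10. In the 6 low gain cows 11 were called (14.5%), 10 higher and 1 lower, against 20.3% (10.8% upward and 9.46% downward), with a median of 0.22. The high gain count fell to 6 when high gain cow 1 and to 7 when high gain cow 3 was left out. The low gain count fell to 6 without low gain cow 1 and was 19 on the values as deposited. Shares of all genes under these alternatives are not given here. Both classes called 9 members, all with the same sign: MRPL40, MRPL14, MRPS18A, MRPS11, MRPL49, MRPL57, MRPL17 and MRPS17 upward and MRPL47 downward. The classes came from 1 fit and shared its estimate of spread. The share of all genes called in both classes was not counted, so this overlap is not set against a background.

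MRPL40 changed by 1.85 ± 0.31 in high gain cows (adjusted p = 0.00156) and by 1.96 ± 0.31 in low gain cows (adjusted p = 0.00124). MRPL17 changed by 0.82 ± 0.15 and 0.79 ± 0.15, and MRPS18A by 1.08 ± 0.23 and 1.19 ± 0.23. MRPL47 changed by -0.88 ± 0.25 and -0.80 ± 0.25. Called in the high gain class alone were MRPL10 (0.70 ± 0.18), MRPS12 (0.63 ± 0.17) and MRPL27 (0.60 ± 0.18), and in the low gain class alone MRPL54 (0.79 ± 0.25) and MRPL32 (0.45 ± 0.14). In the other class these 5 had changes of the same sign, and none of the differences passed.

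Without the 2 cows the high gain count was 18, 15 higher and 3 lower, against 28.5% of all genes (16.2% upward and 12.2% downward), and the median change was 0.23. The low gain count was 16, 8 higher and 8 lower, against 22.9% (12.2% upward and 10.6% downward), and the median was -0.05. All 12 high gain calls were kept, and MRPL37, MRPS18B, MRPL54, MRPL45, MRPL39 and MRPL42 were added. Of the 11 low gain calls 9 were kept. MRPS17 (0.47, adjusted p = 0.089) and MRPL32 (0.36, adjusted p = 0.0788) were lost, and the 7 added calls, led by MRPL39 at -0.75, were all decreases. Low gain cows 2 and 6, with median adipocyte marker changes of 3.85 and 2.29, were still in that set.

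No member passed the test of a difference in change between the classes. The interaction, the high gain change minus the low gain change, was called for 0 of 76 members and for 0% of all genes, and 0 of 76 had an unadjusted p under 0.05, against 3.61% of all genes. The smallest unadjusted p was that of MRPL42, with an interaction of -0.58 ± 0.35 (unadjusted p = 0.124, limma adjusted p = 1). MRPS31, a protein without a bacterial counterpart, followed at -0.67 and MRPL38, of the same kind, at -0.48. The median interaction was -0.12 and 19 of 76 were above 0. Without the 2 cows it turned to 0.26 with 65 of 76 above 0, still with 0 called, and 4 had an unadjusted p under 0.05 (MRPS12, MRPL57, MRPL19 and MRPL30), against 9.8% of all genes. The sign of this median therefore rested on the 2 cows. It was 0.18 without low gain cow 4 alone.

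Between the gain classes at a single biopsy no member passed either. At biopsy 1, under restriction, 0 of 76 were called, against 0% of all genes, and 0 had an unadjusted p under 0.05, against 5.04%. The smallest p was that of MRPL30, a large subunit protein of bacterial descent, whose deposited signal was 9.47 to 9.98 in high gain cows (median 9.66) and 9.35 to 10.40 in low gain cows (median 10.12). The high gain range lay inside the low gain range, and the difference, high minus low, was -0.33 ± 0.20 (unadjusted p = 0.119, limma adjusted p = 0.955). MRPL42 differed by 0.46 ± 0.32 and MRPL57 by -0.23 ± 0.18. The differences of the 76 ran from -0.33 to 0.68 with a median of 0.09, and 57 were above 0.

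Without the 2 cows the median at biopsy 1 was -0.12 and 23 of 76 were above 0. The median was -0.13 without low gain cow 4 alone, so the side of 0 on which the members lay turned with that cow. MRPL30 again had the smallest p, at -0.43 ± 0.17 (unadjusted p = 0.031, adjusted p = 0.586).

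At biopsy 2, during free feeding, 0 of 76 members were called, against 0% of all genes, and 0 had an unadjusted p under 0.05, against 2.35%. MRPL51, a large subunit protein without a bacterial counterpart, had the smallest p. Its deposited signal was 10.68 to 11.46 in high gain cows (median 11.16) and 11.18 to 11.51 in low gain cows (median 11.32). The groups overlapped, and the difference was -0.25 ± 0.15 (unadjusted p = 0.119, limma adjusted p = 1). MRPL13 differed by -0.20 ± 0.13 and MRPS21, a small subunit protein of bacterial descent, by 0.23 ± 0.16. The 76 differences ran from -0.44 for MRPS6 to 0.23 for MRPS21, with a median of -0.04, and the median was 0.05 without the 2 cows.

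Over each cow's mean of both biopsies 0 of 76 members were called, against 0% of all genes, and 0 had an unadjusted p under 0.05, against 3.29%. MRPL30 was lowest again at -0.24 ± 0.13 (unadjusted p = 0.0933, limma adjusted p = 0.999), before MRPS21 at 0.15 ± 0.09 and MRPS9, a small subunit protein of bacterial descent, at -0.13 ± 0.11. The median of the 76 was 0.01 with 43 above 0, and without the 2 cows it turned to -0.05 with 27 above 0. There MRPL51 had the smallest p, at -0.39 ± 0.16 (unadjusted p = 0.0335, limma adjusted p = 0.828).

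**Figure D5:**
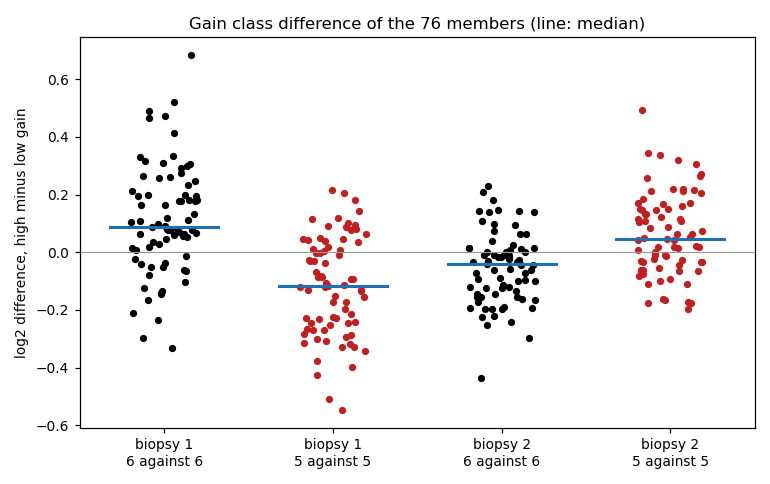
Log2 difference between gain classes (high minus low) for each of the 76 members at biopsy 1 and at biopsy 2, in all cows (black, 6 against 6) and without cow 4 of each class (red, 5 against 5); points are spread sideways at random and the blue line is the median. The median is 0.09 and -0.12 at biopsy 1 and -0.04 and 0.05 at biopsy 2, and no point passed the test.

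Genes that build and use the mitochondrial ribosome were measured on the same arrays. Of the 5 mitoribosomal proteins under other symbols DAP3, a GTP-binding protein of the small subunit, rose by 0.51 ± 0.11 (adjusted p = 0.00296) and AURKAIP1, another small subunit protein, by 0.58 ± 0.15 (adjusted p = 0.00794). PTCD3 (0.10), CHCHD1 (0.36) and GADD45GIP1 (-0.09) were not called. Among 24 genes of assembly and ribosomal RNA maturation 6 rose and 1 fell (29.2%), against 38.1% of all genes, with a median of 0.15. The same counts held in the 10 cows, against 42.5%. MPV17L2, an inner membrane protein needed for assembly, rose by 1.35 ± 0.15 (adjusted p = 3.15e-05), and ERAL1, which chaperones the RNA of the small subunit, rose by 1.06 ± 0.11 (adjusted p = 1.53e-05). TFB1M, which methylates that RNA, rose by 0.69 ± 0.16 (adjusted p = 0.00407). The assembly factor RBFA (0.46), the ribosomal RNA methyltransferase MRM1 (0.40) and the helicase DDX28 (0.40) rose by less. MALSU1, the factor that binds MRPL14, fell by 0.26 ± 0.09 (adjusted p = 0.0302).

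Among 17 translation factors of mitochondria 3 rose and 2 fell over the 12 cows (29.4%, against 38.1% of all genes), with a median of 0.07, and 4 rose and 4 fell in the 10 cows (47.1%, against 42.5%). MTFMT, which formylates the initiator transfer RNA, rose by 0.52 ± 0.12 (adjusted p = 0.00355). PDF, which removes the formyl group from new chains, rose by 0.49 ± 0.13 (adjusted p = 0.00921), and TSFM, the exchange factor of the elongation factor TUFM, rose by 0.49 ± 0.16 (adjusted p = 0.0234). GUF1, a GTPase related to bacterial LepA, and MTRF1L, a release factor, fell by 0.60 ± 0.20 and 0.36 ± 0.09 (adjusted p = 0.0338 and 0.00647). TUFM itself changed by 0.07 ± 0.29 (adjusted p = 0.87).

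The regulators of mitochondrial genes split evenly, with 3 of 14 higher and 3 lower over the 12 cows (42.9%, against 38.1% of all genes) and 4 and 4 in the 10 cows (57.1%, against 42.5%). ESRRA, a nuclear receptor of oxidative metabolism, rose by 1.34 ± 0.16 (adjusted p = 5.73e-05). PPRC1, a coactivator, rose by 0.37 ± 0.10 (adjusted p = 0.00932), and POLRMT, the mitochondrial RNA polymerase, by 0.30 ± 0.07 (adjusted p = 0.00577). TFAM, which packages mitochondrial DNA and activates its transcription, fell by 0.50 ± 0.15 (adjusted p = 0.0209). MTERF1 fell by 0.45 ± 0.08 (adjusted p = 0.00119), and NRF1, a transcription factor for nuclear genes of mitochondrial proteins, fell by 0.40 ± 0.09 (adjusted p = 0.00388). The coactivator PPARGC1A changed by 0.85 ± 0.36 (adjusted p = 0.083), and passed in the 10 cows with 0.73 (adjusted p = 0.0181).

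The proteins of the cytosolic ribosome gave a comparison of a similar kind. Of 68 genes 16 rose and 8 fell over the 12 cows (35.3%), with a median change of 0.11, against 27.6% and 0.14 for the mitochondrial set. In the 10 cows 52.9% of the cytosolic and 44.7% of the mitochondrial genes were called, 23 up and 13 down among the former. No test set the 2 families against each other.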

How the data were processed

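Muscle RNA of 12 cows was hybridised to 24 Affymetrix arrays, 1 per cow and biopsy. Per the labels' protocols, biotinylated cRNA was made from 250 ng of total RNA. The submitters' processing notes name Transcriptome Analysis Console and Affymetrix Expression Console, with no version, and the normalization the authors applied is not stated. The range of the deposited values led to their reading as log2 signal, for which no base is named.

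Of 26773 features 18790 were paired with 1 gene, 385 with several and 7598 with none. For 74 of the 76 members the annotation's Entrez number was found in the RefSeq table. Quantile normalization over the 24 arrays was used for changes between biopsies and for each cow's mean of both biopsies. The further steps were limma 3.58.1 in R 4.3.3 (lmFit, eBayes with a trend) and Benjamini-Hochberg adjustment over 14198 genes. The titles pair both biopsies of an animal by its number, so cow was a block. Deviations from the group means over the tested genes correlated within cows at -0.20 to 0.35 (median 0.16), above 0.1 in 7 of 12. Gain classes were compared within a biopsy without a block.

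The members, gene lists, alternatives and the 2 cows left out were chosen with earlier results of these data known. Named were the 4 brightest and 4 dimmest features per subunit, in each comparison the members with the smallest p, 15 members with well-known roles and the genes of the lists. The number of arrays limits the precision. The scripts were tested on simulated data.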

Additional observations from a re-analysis of the deposited data

Results flagged for a closer look

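The 21 members called over the 12 cows were checked in each of the 4 groups for an array far from the other 5. Of 84 groups checked 9 held such an array. For a single group chance gives about 1 in 20. The genes share the same arrays, so the 84 groups are not separate draws and their count is not set against that rate. In each of the 9 the outlying array's distance to its nearest neighbour was a large part of the group's whole range of normalized log2 signal.

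Of these, 3 values were low and 1 was high on the biopsy 1 array of low gain cow 4, the array with little muscle transcript. MRPL47 was 10.15 there, against 11.44 to 12.04 in the other low gain cows, MRPL45 was 8.56, against 10.03 to 10.88, and MRPL37 was 8.37, against 10.60 to 11.93. MRPL36 was 11.77, against 10.91 to 11.13. On the fat-rich biopsy 2 array of high gain cow 4 MRPL27 was 9.26, against 9.94 to 10.26, and MRPL37 was 10.49, against 12.07 to 12.76.

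The other 3 came from arrays that did not stand apart in muscle or fat markers. MRPL17 was 8.98 in low gain cow 6 at biopsy 1, against 9.50 to 9.74. MRPL14 was 11.52 in high gain cow 2 at biopsy 1, against 10.43 to 10.78. MRPL32 was 8.38 in high gain cow 1 at biopsy 2, against 8.63 to 8.76.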

How the results depend on the processing

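Each comparison was repeated under 22 or 23 alternatives, the single-cow omissions included. The counts of members called for the interaction and for the 3 gain comparisons were 0 in all of them, and no called member changed sign. Of all genes 38.1% were called for all cows and 42.5% without cow 4 of both classes. The shares of all genes under the other alternatives are not given here, so the members' counts below are not set against them. The count for all cows, 21, was 34 without cow 4 of both classes and 36 with array weights. It ranged from 17 to 35 when 1 cow was left out, with 35 without low gain cow 4. The cause of the count with array weights was not tested. The high gain count, 12, ranged from 6 to 17 when 1 cow was left out, with 6 when high gain cow 1, 7 when high gain cow 3 and 17 when low gain cow 4 was absent. The low gain count, 11, was 19 on the values as deposited, and it ranged from 6 to 13 when 1 cow was left out, with 6 without low gain cow 1. On the values as deposited the median change of all genes was 0.12 in place of 0.02 and 28 members were called over all cows, 26 of them higher. Without the replicate block of the pairing by cow the counts were 21 for all cows, 12 for high gain and 13 for low gain cows and 0 for the interaction, so the pairing changed no count by over 1.5 times. Of the 21 members, MRPL45 was called in 14 of 23 alternatives, MRPS7 in 15, MRPL24 in 17, MRPL36 in 18, and MRPL39 and MRPS6 in 22. The other 15 were called in every alternative that measured them. The planned search for promoter motifs was not run, since no sequence was used here. Signal over background of the arrays was not used here.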
